A study of Mus musculus with 18 samples.

Results

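The 7 genes described here encode the CSF1 receptor ligands CSF1 and IL-34 (Csf1, Il34) and the receptors for the colony stimulating factors (Csf1r, Csf2ra, Csf2rb, Csf2rb2, Csf3r). They are the rows, out of 54532 genes in the count table, whose Ensembl identifier maps to one of these symbols, 1 row each. No measured value entered this rule, but the list was drawn up with earlier results of these data known. RNA was sequenced from retinas of rd1 mice on the FVB background at postnatal day 30. All mice carried this allele, in which a Pde6b mutation kills rods and later cones, and all had received AAV8-GFP under the retina, so no group is an untreated or a healthy retina. The groups were microglia from retinas given AAV8-GFP + AAV8-TGFB1 (7 libraries, called TGFB1 here), microglia from retinas given AAV8-GFP alone (7 libraries, called GFP), non-microglia of the TGFB1 retinas (2 libraries) and non-microglia of the GFP retinas (2 libraries). Cells were released with papain, stained with antibodies and sorted into lysis buffer, and polyA RNA was made into modified Smart-Seq2 libraries. The promoter of the AAV8-TGFB1 vector, the antibodies, and whether libraries came from separate or pooled animals are not stated in the labels. The p-values therefore speak of the spread among the sequenced libraries, part of which may be technical.

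CSF1 (M-CSF) and IL-34 are unrelated in sequence but bind the same tyrosine kinase receptor, CSF1R, on which microglia and other macrophages depend for survival. In the brain and retina of mice, IL-34 is known mainly from neurons and CSF1 from glia. CSF2RA is the ligand-binding chain for GM-CSF. CSF2RB is the signalling chain shared by the receptors for GM-CSF, IL-3 and IL-5, and Csf2rb2 encodes another beta chain of the mouse that serves IL-3. CSF3R binds G-CSF and is best known from neutrophils.

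Libraries held 1582451 to 3064027 counts, with a count in 19947 to 26333 genes. Levels are given as CPM, counts scaled to 1e+06 of TMM-scaled library size, and one count was worth less than 1 CPM in every library. Tgfb1 checked the labels of the non-microglia, with 462 and 402 counts in the TGFB1 libraries and 0 and 0 in the GFP libraries. In microglia Tgfb1 averaged 14.5 ± 6.27 CPM in TGFB1 retinas and 12.6 ± 2.56 CPM in GFP retinas (SD, n = 7 each). All 10 listed microglia markers had counts in both microglia groups. Their summed level was 32596 to 38845 CPM in TGFB1 microglia and 30843 to 37184 CPM in GFP microglia, against 52.0 and 53.8 CPM in TGFB1 non-microglia and 57.9 and 61.3 CPM in GFP non-microglia. Markers of rods, cones, bipolar, amacrine and ganglion cells and Mueller glia were summed without Apoe and Gngt2, which microglia also express. They came to 564.6 to 1346.8 CPM in TGFB1 microglia and 676.3 to 1731.1 CPM in GFP microglia, the highest being GFP replicate 2.

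The stretch just upstream of the annotated start is shown for Csf1, the one ligand or receptor gene that rose with TGFB1, and for Csf2ra, Csf2rb2 and Csf3r. No promoter sequence was at hand for Il34 or Csf2rb, and that of Csf1r is not shown. The sequences are those of RefSeq for GRCm38.p6, read along the gene's own strand from 5' to 3', and bases that lie in annotated exons were left out. Capitals mark matches, on either strand, to a canonical NF-kappaB sequence (the capitals in the Csf1 line spell it in full), the PU.1 core GAGGAA, the AP-1 sequence TGANTCA or the SMAD core CAGAC.
Csf1, chr3:107760470-107760719, minus strand: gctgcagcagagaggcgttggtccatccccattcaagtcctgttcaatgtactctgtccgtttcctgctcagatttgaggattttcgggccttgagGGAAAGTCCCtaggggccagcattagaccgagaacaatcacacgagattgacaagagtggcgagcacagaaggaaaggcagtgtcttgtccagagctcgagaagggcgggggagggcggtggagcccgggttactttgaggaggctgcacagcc
Csf2ra, chr19:61228430-61228668, minus strand: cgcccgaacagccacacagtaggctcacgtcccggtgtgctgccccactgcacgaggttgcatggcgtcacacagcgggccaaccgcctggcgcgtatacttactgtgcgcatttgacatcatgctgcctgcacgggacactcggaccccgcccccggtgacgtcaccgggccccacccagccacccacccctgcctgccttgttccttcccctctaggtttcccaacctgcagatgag
Csf2rb2, chr15:78305722-78305971, minus strand: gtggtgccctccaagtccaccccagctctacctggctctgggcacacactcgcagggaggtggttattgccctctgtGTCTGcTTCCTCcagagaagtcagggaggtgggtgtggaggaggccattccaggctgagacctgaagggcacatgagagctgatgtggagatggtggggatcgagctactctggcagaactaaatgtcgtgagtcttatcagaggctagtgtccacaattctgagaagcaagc
Csf3r, chr4:126024409-126024549, plus strand: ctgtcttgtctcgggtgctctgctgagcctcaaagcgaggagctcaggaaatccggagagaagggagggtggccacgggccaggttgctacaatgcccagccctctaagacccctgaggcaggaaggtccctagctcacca
The Csf1 stretch held 1 NF-kappaB match and none of the other 3 motifs. The NF-kappaB sequence was added to the search after the Csf1 stretch had been read, and 0.14% of 32851 promoters of 250 bases hold it. The Csf2rb2 stretch held 1 SMAD core and 1 PU.1 core that do not overlap, motifs that 42.2% and 23.3% of promoters hold, and 6.75% hold the AP-1 sequence. The Csf2ra stretch of 239 bases and the Csf3r stretch of 141 bases held none of the 4. A match describes letters in this window and no binding was measured.

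**Figure D1:**
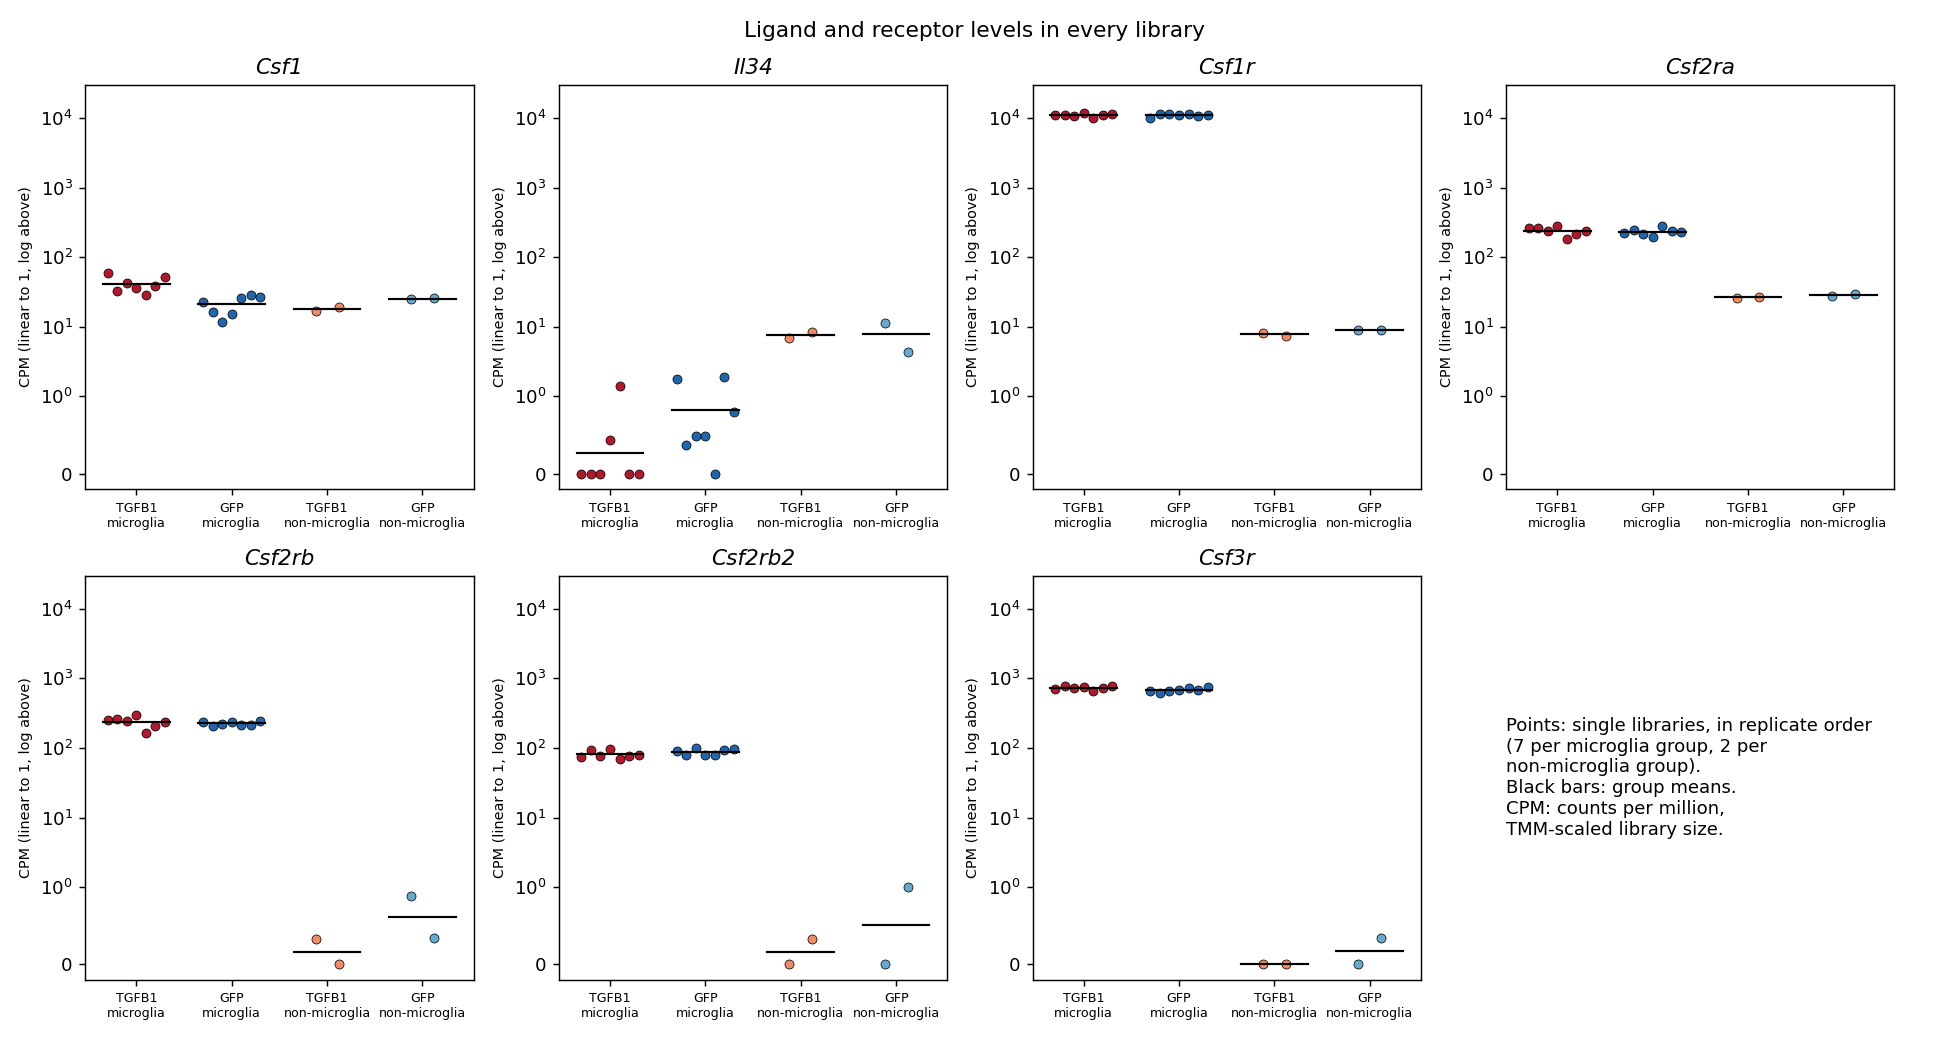
CPM of the 7 genes (1 panel each; the vertical axis is linear up to 1 CPM and logarithmic above it) in every library of the 4 groups, with points for libraries and black bars for group means. The 5 receptor genes lie higher in every microglia library than in any non-microglia library, Il34 lies lower, and Csf1 lies at 11.6 to 60.0 CPM in all groups. Of all genes, 65.2% were called between the fractions in TGFB1 and 64.2% in GFP retinas. The share of all genes without overlap between the fractions was not counted.

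Csf1 was present in both fractions and was the only one of the 7 genes called in the comparison of treatments. In microglia it was 1.97-fold higher with TGFB1 (log2 fold change 0.98, SE 0.19, edgeR quasi-likelihood adjusted p = 0.0206). The lowest, median and highest TGFB1 microglia libraries had 28.9, 38.8 and 60.0 CPM, against 11.6, 22.4 and 28.6 CPM in GFP microglia. The TGFB1 libraries thus all lay above the GFP libraries, although the lowest of one group (replicate 6) and the highest of the other (replicate 7) were close, at 28.9 and 28.6 CPM. The means were 41.6 ± 10.9 CPM in TGFB1 microglia and 20.96 ± 6.54 CPM in GFP microglia (SD, n = 7 each). Of 10970 genes tested in microglia, 24 had ranges that did not overlap between treatments, or 0.219%. The exact permutation test of Csf1 (two-sided, 7 against 7 libraries) gave p = 0.000583, the smallest it can give.

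The counts behind these values were modest, 41 to 118 per library in TGFB1 microglia and 24 to 76 in GFP microglia. No other gene had exons overlapping those of Csf1 (GRCm38 chromosome 3, 107741048 to 107760469, minus strand), and none of its 50-base stretches occurred in transcripts of another gene. The call ended when TGFB1 replicate 4, 7 or 8 or GFP replicate 3 was left out, with adjusted p = 0.0506, 0.0529, 0.0687 and 0.0755. It ended with the summed markers of other retinal cells, without Apoe and Gngt2, as a covariate (log2 fold change 0.83, SE 0.20, adjusted p = 0.146). It also ended with the share of rRNA repeat genes as a covariate (log2 fold change 0.74, SE 0.17, adjusted p = 0.0525); that share was 5.47% to 10% of counts in TGFB1 microglia and 8.25% to 11.1% in GFP microglia. The log2 fold change stayed between 0.69 and 1.42 in all 30 alternatives, of which 22 kept the call. These alternatives refit the same libraries or part of them and are not independent tests. DESeq2 with and without independent filtering gave the same Csf1 result.

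**Figure D2:**
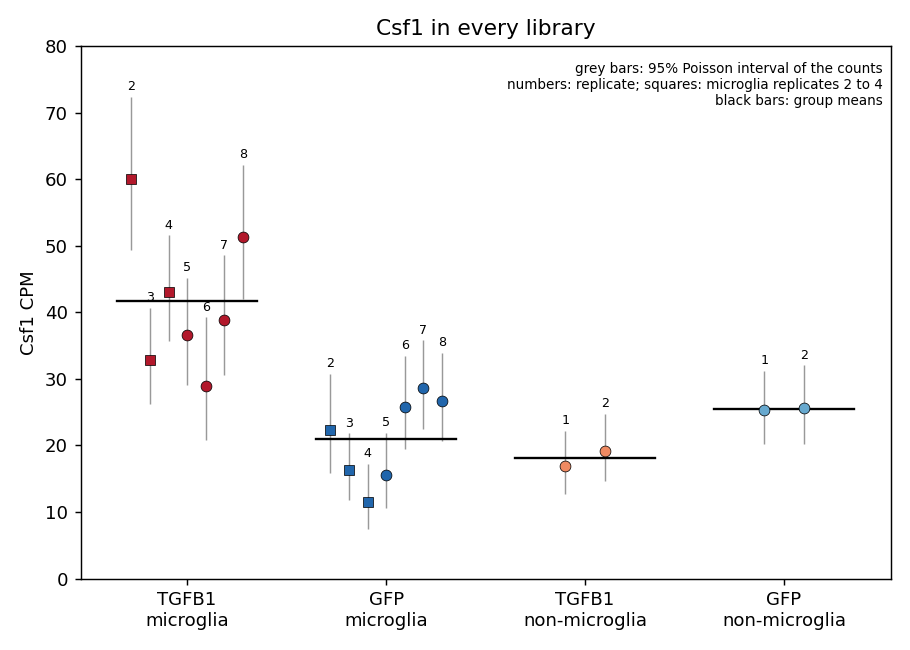
Csf1 level (CPM, linear axis) in every library of the 4 groups, with the 95% Poisson interval of each library's counts in grey, replicate numbers above, squares for microglia replicates 2 to 4 and black bars for group means. The TGFB1 microglia libraries lie between 28.9 and 60.0 CPM and the GFP microglia libraries between 11.6 and 28.6 CPM, while the non-microglia libraries lie between 17.0 and 25.6 CPM.

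The Csf1 levels were also compared within parts of the set of replicates. The labels do not divide replicates 2 to 4 from 5 to 8, and each part was fitted alone only after the data were seen. Among replicates 2 to 4, TGFB1 microglia averaged 45.3 ± 13.7 CPM and GFP microglia 16.7 ± 5.43 CPM (SD, n = 3 each), a ratio of 2.71. Among replicates 5 to 8 the means were 38.9 ± 9.29 CPM in TGFB1 microglia and 24.1 ± 5.88 CPM in GFP microglia (n = 4 each), a ratio of 1.61. Neither part alone passed the test over all genes (adjusted p = 0.0689 and 0.547), and whether the parts differ was not tested. In replicates 2, 7 and 8, whose libraries hold Xist RNA in both treatments, the means were 50.03 CPM in TGFB1 microglia and 25.9 CPM in GFP microglia. In the other replicates they were 35.3 CPM in TGFB1 microglia and 17.3 CPM in GFP microglia. Each non-microglia library held 0 or 1 Xist counts. Comparisons of fractions thus set microglia with and without Xist RNA against non-microglia without it, and the part of this in their results was not tested.

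Summed over the full lists, markers of other myeloid cells went either way between TGFB1 and GFP microglia, with ranges that overlapped in every list. The means were higher in TGFB1 microglia for neutrophil, monocyte and perivascular macrophage markers. They were lower for the mast cell and basophil markers (2.30 CPM in TGFB1 and 3.71 CPM in GFP microglia). Of these, Kit averaged 0.985 CPM in TGFB1 and 2.41 CPM in GFP microglia, against 34.5 and 38.0 CPM in TGFB1 and GFP non-microglia. The dendritic cell markers were also lower (1017.5 CPM in TGFB1 and 1054.1 CPM in GFP microglia). Without the microglia marker Siglech they were higher, at 22.4 CPM in TGFB1 and 17.7 CPM in GFP microglia. The 7 monocyte markers summed to 75.4 ± 25.1 CPM in TGFB1 microglia, with a range of 50.1 to 126.6 and 6 of 7 detected, Ly6c2 being at 0. They summed to 49.5 ± 16.9 CPM in GFP microglia, with a range of 27.0 to 75.4 and 7 of 7 detected (SD, n = 7 each). The 7 perivascular macrophage markers, all detected in both groups, summed to 5.11 to 55.2 CPM in TGFB1 microglia and 8.67 to 25.8 CPM in GFP microglia. Their part in the Csf1 difference was not tested. Markers of Mueller glia without Apoe, which microglia also express, summed to 333 to 949 CPM in TGFB1 microglia and 421 to 1113 CPM in GFP microglia, against 16139 to 18236 CPM over the 4 non-microglia libraries. In sorted but bulk libraries, more cells that express a gene and more RNA per cell cannot be told apart.

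In non-microglia Csf1 did not pass the test and its difference had the other sign. It was at 17.0 and 19.2 CPM in the TGFB1 libraries and at 25.3 and 25.6 CPM in the GFP libraries, from 52 and 59 counts in TGFB1 and 86 and 76 counts in GFP non-microglia. The log2 fold change was -0.49 (SE 0.24, 95% interval -0.99 to 0.01, edgeR adjusted p = 0.667). The difference between the effects in microglia and in non-microglia was 1.47 on the log2 scale (SE 0.39, unadjusted p = 0.000861). Adjusted over the 15321 genes tested it did not pass (edgeR adjusted p = 0.669). None of the 7 genes passed, against 0.0131% of all genes. DESeq2 also called 0 of the 7. Summed markers of retinal cell types also differed between TGFB1 and GFP non-microglia, in either direction. Bipolar markers averaged 2450.8 CPM in TGFB1 and 1568.2 CPM in GFP non-microglia (n = 2 each). Cone markers without Gngt2 averaged 1008.9 CPM in TGFB1 and 1751.5 CPM in GFP non-microglia, and rod markers 174.3 and 310.3 CPM. Their part in the Csf1 difference in non-microglia was not tested.

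Between the fractions Csf1 was called in TGFB1 retinas and not in GFP retinas. In TGFB1 retinas it was 2.30-fold higher in microglia than in non-microglia (log2 1.204, SE 0.28, edgeR adjusted p = 0.000683). In GFP retinas microglia and non-microglia were not told apart, with a log2 difference, microglia minus non-microglia, of -0.27 (SE 0.27, 95% interval -0.82 to 0.28, edgeR adjusted p = 0.388). The test of that change between treatments is the difference of effects given above, which did not pass after adjustment.

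Il34 had few counts, and most of them were in non-microglia. The 7 TGFB1 microglia libraries held 3 counts together, with 5 libraries at 0, and the 7 GFP microglia libraries held 13, with 1 library at 0. The lowest, median and highest libraries were at 0, 0 and 1.41 CPM in TGFB1 microglia and at 0, 0.484 and 1.88 CPM in GFP microglia. Il34 had 21 and 26 counts (6.85 and 8.45 CPM) in TGFB1 non-microglia and 39 and 13 counts (11.5 and 4.38 CPM) in GFP non-microglia. Every microglia library thus lay below every non-microglia library, a separation whose share over all genes was not counted. Il34 was lower in microglia by a log2 difference of -4.90 in TGFB1 retinas (SE 0.79, edgeR adjusted p = 7.49e-06) and -3.20 in GFP retinas (SE 0.65, adjusted p = 0.000149). The counts put the ratio of microglia to non-microglia at 0.0264 in TGFB1 retinas (95% Poisson interval 0.00526 to 0.0820) and 0.100 in GFP retinas (0.0501 to 0.187).

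No effect of TGFB1 on Il34 was detectable at this depth. In non-microglia the log2 fold change was -0.06, with a 95% interval of -0.97 to 0.84 that spans large changes either way (edgeR adjusted p = 0.992). The 2 GFP non-microglia libraries differed from each other by more than the treatments did. In microglia Il34 fell under the filter on low counts, and the exact permutation test of its CPM gave p = 0.0816 (two-sided, n = 7 each). The gene lies on GRCm38 chromosome 8, 110741829 to 110805924, on the minus strand, and 4.95% of its exon bases overlap the antisense genes Gm15894 and Gm15895. Since the strand setting of the counting is not given, reads of these pairs cannot be told apart.

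Set per kilobase of exon, the levels of the ligands were far apart in microglia and close to each other in non-microglia. In TGFB1 microglia Csf1 averaged 7.88 ± 2.06 CPM per kilobase and Il34 0.135 ± 0.271 (SD, n = 7), and in GFP microglia Csf1 averaged 3.97 ± 1.24 and Il34 0.422 ± 0.368 (n = 7). In TGFB1 non-microglia Csf1 averaged 3.42 ± 0.30 CPM per kilobase and Il34 3.90 ± 0.58 (n = 2). In GFP non-microglia the values were 4.82 ± 0.04 for Csf1 and 4.04 ± 2.56 for Il34 (n = 2). Within each non-microglia group the ligands differed by less than the SD of Il34.

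Csf1r, the receptor of both ligands, was among the most abundant messages of microglia. It made up 1.02% of counts in TGFB1 microglia and 1.007% in GFP microglia, where it ranked number 10 and number 9 of all genes by mean CPM. The lowest, median and highest libraries had 10113, 10911 and 11805 CPM in TGFB1 microglia and 10078, 11014 and 11397 CPM in GFP microglia, and the groups overlapped over nearly their whole range. The log2 fold change with TGFB1 was -0.005 (SE 0.04, 95% interval -0.09 to 0.08, edgeR adjusted p = 0.995). This interval leaves out changes of the size seen for Csf1.

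In non-microglia Csf1r had 25 and 23 counts in TGFB1 retinas and 31 and 27 counts in GFP retinas, or 7.81 ± 0.48 CPM in TGFB1 and 9.10 ± 0.01 CPM in GFP non-microglia (SD, n = 2 each). The ratio of microglia to non-microglia was 1415 in TGFB1 retinas (95% Poisson interval 1067 to 1919) and 1212 in GFP retinas (938 to 1596). It had the smallest p of all 15321 genes in both comparisons of fractions (edgeR adjusted p = 2.32e-26 in TGFB1 and 2.77e-26 in GFP retinas). Its last exon overlaps that of Hmgxb3 on the other strand over 873 bases, 15.1% of the Csf1r exon length (GRCm38 chromosome 18, 61100598 to 61132149, plus strand). Hmgxb3 was at 68.0 and 64.1 CPM in TGFB1 and GFP microglia and at 27.8 and 27.9 CPM in TGFB1 and GFP non-microglia, and the strand setting is not given. The remaining Csf1r in non-microglia was 0.0710% of the microglia level in TGFB1 retinas and 0.0828% in GFP retinas. The 10 microglia markers stood at medians of 0.0105% in TGFB1 retinas and 0.0551% in GFP retinas, with the highest, Sall1, at 1.02% in TGFB1 and 0.780% in GFP retinas.

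Csf2ra, the GM-CSF binding chain, was the one receptor gene with over 31 counts in a non-microglia library. Microglia had 184.2, 241.4 and 277.4 CPM (lowest, median and highest) in TGFB1 retinas and 194.6, 229.8 and 279.2 CPM in GFP retinas. It had 80 and 83 counts (26.1 and 27.0 CPM) in TGFB1 non-microglia and 93 and 88 counts (27.3 and 29.6 CPM) in GFP non-microglia. The ratio of microglia to non-microglia was 9.20 in TGFB1 retinas (95% Poisson interval 7.86 to 10.8, edgeR adjusted p = 2.08e-14) and 8.21 in GFP retinas (7.07 to 9.59, adjusted p = 4.18e-14). Non-microglia thus held 11.03% of the microglia level in TGFB1 retinas and 12.3% in GFP retinas, while the highest of the 10 microglia markers held 1.02% and 0.780%. The gene (GRCm38 chromosome 19, 61223957 to 61228429, minus strand) shared no exon with another gene and no 50-base stretch with another gene's transcripts.

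The beta chain genes, of which GM-CSF signalling needs Csf2rb, had many counts in microglia and 0 to 3 in each non-microglia library. In microglia Csf2rb was at 166.6, 245.9 and 293.5 CPM in TGFB1 retinas (lowest, median, highest) and at 206.5, 223.5 and 245.7 CPM in GFP retinas. It had 1 and 0 counts in TGFB1 non-microglia and 3 and 1 counts in GFP non-microglia. The counts put Csf2rb 1490-fold higher in microglia of TGFB1 retinas (95% Poisson interval 267 to 58857) and 357-fold higher in those of GFP retinas (139 to 1311). Csf2rb2 ran from 69.9 to 96.96 CPM in TGFB1 microglia and from 78.7 to 98.3 CPM in GFP microglia, with 0 and 1 counts in TGFB1 non-microglia and 0 and 3 counts in GFP non-microglia. It was 507-fold higher in microglia of TGFB1 retinas (90.8 to 20027) and 186-fold higher in those of GFP retinas (63.6 to 904). These intervals are wide because the non-microglia side rests on 1 to 4 counts.

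TGFB1 retinas and GFP retinas were not told apart for any of the 3 chains in microglia. The log2 fold change was 0.05 for Csf2ra (95% interval -0.12 to 0.21), 0.07 for Csf2rb (-0.10 to 0.24) and -0.11 for Csf2rb2 (-0.30 to 0.07), with edgeR adjusted p of 0.958, 0.935 and 0.898. Each interval leaves out a change as large as that of Csf1. Per kilobase of exon Csf2ra averaged 83.8 ± 11.2 CPM in TGFB1 microglia and 80.8 ± 9.40 in GFP microglia (SD, n = 7 each). Below it came Csf2rb, at 32.6 ± 5.54 in TGFB1 and 30.95 ± 2.13 in GFP microglia, and Csf2rb2, at 17.2 ± 2.20 in TGFB1 and 18.5 ± 1.76 in GFP microglia. The beta chain genes lie side by side on GRCm38 chromosome 15 in opposite directions (Csf2rb 78325752 to 78353847, plus strand; Csf2rb2 78282507 to 78305721, minus strand). They share 12.3% of the 50-base stretches of Csf2rb and 18.4% of those of Csf2rb2, so their split between the pair is uncertain.

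Csf3r, the G-CSF receptor, was read almost only in microglia. Microglia had 669.9, 736.0 and 767.3 CPM in TGFB1 retinas (lowest, median, highest) and 626.9, 670.4 and 743.6 CPM in GFP retinas. It had 0 and 0 counts in TGFB1 non-microglia and 0 and 1 in GFP non-microglia. It was at least 749-fold higher in microglia of TGFB1 retinas, against a floor of 3 counts per non-microglia library (0.977 CPM), and the counts gave a ratio of 4336 in GFP retinas (95% Poisson interval 778 to 171291, 1 count). The neutrophil markers are the defining list for the cell type best known for this receptor. They summed to 0 to 5.10 CPM in TGFB1 microglia, with S100a8, S100a9, Mpo, Elane, Camp and Ltf at 0, and to 0 to 3.53 CPM in GFP microglia, with Ly6g, Elane and Camp at 0, so the list was at or near 0 in both groups.

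With TGFB1 the Csf3r mean was 731.5 ± 34.4 CPM in microglia, against 679.5 ± 42.6 CPM with GFP (SD, n = 7 each), and the ranges overlapped. The log2 fold change of 0.10 (SE 0.05, 95% interval -0.007 to 0.21) did not pass the test over all genes (edgeR adjusted p = 0.784), while the exact permutation test of this gene alone gave an unadjusted two-sided p of 0.0291, and 6 of the 7 TGFB1 libraries lay above the GFP median. In replicates 2 to 4 the means were 736.6 ± 29.4 CPM in TGFB1 microglia and 643.2 ± 14.1 CPM in GFP microglia (n = 3 each). In replicates 5 to 8 they were 727.7 ± 41.8 CPM in TGFB1 microglia and 706.7 ± 34.5 CPM in GFP microglia (n = 4 each). The gene lies on GRCm38 chromosome 4, 126024550 to 126044440, plus strand. It shares 10.7% of its 50-base stretches with other genes, chiefly AC105061.2 (8.84%), so its level is uncertain to that extent.

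**Figure D3:**
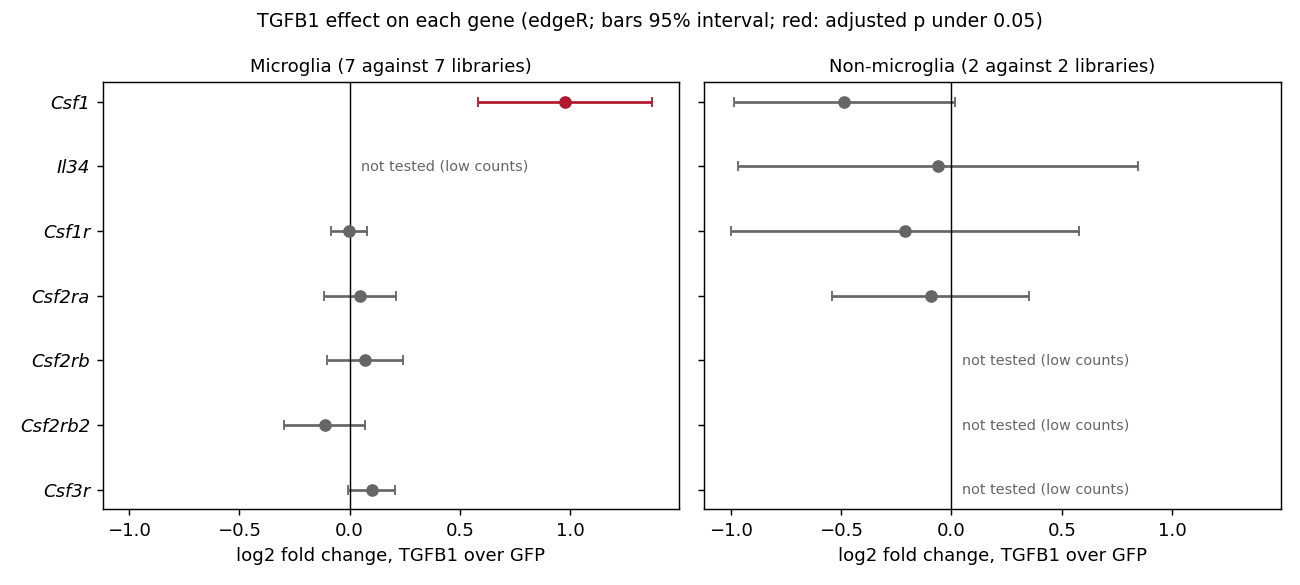
Log2 fold change, TGFB1 over GFP, of the 7 genes in microglia (left, 7 against 7 libraries) and in non-microglia (right, 2 against 2 libraries), with 95% intervals from edgeR and red for adjusted p under 0.05. Csf1 in microglia, at 0.98, is the only red point; the 5 receptor genes in microglia lie between -0.11 and 0.10, and intervals in non-microglia are wider.

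Across the comparisons, 1 of the 6 genes tested in microglia rose with TGFB1 and none fell, beside 0.237% of all 10970 tested genes that rose and 0.0729% that fell. In non-microglia 0 of 4 tested genes passed, beside 0.39% of 13598 that were called, 0.338% higher and 0.0515% lower, and the number of the 4 with an unadjusted p under 0.05 was also 0, and DESeq2 without independent filtering called 0. In TGFB1 retinas 6 of 7 were higher and 1 lower in microglia than in non-microglia, and in GFP retinas 5 were higher and 1 lower. The share of all genes higher in microglia was 30.8% in TGFB1 and 29.9% in GFP retinas, the share lower was 34.4% in TGFB1 and 34.2% in GFP retinas, and the share called either way was 65.2% in TGFB1 and 64.2% in GFP retinas, so a call between the fractions was common. By mean CPM per kilobase, the order in microglia of both treatments was Csf1r, Csf3r, Csf2ra, Csf2rb, Csf2rb2, Csf1 and Il34, and the library ranges of neighbours in this order did not overlap. In non-microglia of both treatments Csf2ra stood highest, Csf1 and Il34 followed with ranges that overlapped in both treatments, and Csf1r came after them. Csf2rb, Csf2rb2 and Csf3r, at 0 to 4 counts a treatment, could not be put in order there.

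The pathway around these receptors was read through 62 other genes in 6 lists: ligands and their processing, other IL-34 binding partners, CSF1R signalling, beta chain signalling, transcription factors of the Csf1r locus and other receptors of myeloid cells. With TGFB1, 0 of the 47 tested in microglia were called, beside 0.31% of all genes, and 4 had an unadjusted edgeR p under 0.05, beside 6.65% of all genes. These shares lie near those of all genes. The median log2 fold change of the 47 was 0.01, with a range of -0.37 to 0.40, and the median of all genes was 0.00. The smallest p belonged to Tgfbr1, a TGF-beta receptor chain, at 504.5 ± 27.5 CPM in TGFB1 microglia and 418.0 ± 50.7 CPM in GFP microglia (SD, n = 7 each; log2 fold change 0.26, edgeR adjusted p = 0.142). It was followed by the adaptor gene Shc1 (0.31, adjusted p = 0.215) and the sheddase gene Adam10 (0.26, adjusted p = 0.222). In non-microglia 0 of 32 were called, beside 0.39% of all genes, and 2 had an unadjusted p under 0.05, beside 7.63%: Socs2 (0.70, adjusted p = 0.594) and Stat3 (0.19, adjusted p = 0.640), both of cytokine signalling.

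Of the ligands of the other receptors, Csf2, which encodes GM-CSF, had 0 counts in all 14 microglia libraries, against 1 and 0 counts in TGFB1 non-microglia and 4 and 3 counts in GFP non-microglia. Csf3, which encodes G-CSF, and Il3 had 0 counts in all 18 libraries, where 3 counts correspond to 0.881 to 2.12 CPM. Il5 had 2 counts in all. Adam17, the protease known to release membrane-bound CSF1 and CSF1R from the cell surface, and Adam10 were higher in microglia of GFP retinas by log2 differences of 2.65 and 2.91 (edgeR adjusted p = 1.91e-15 and 8.15e-15).

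Between the fractions of GFP retinas 37 of 52 tested pathway genes were higher in microglia and 7 lower, beside 29.9% of all genes higher and 34.2% lower, with a median log2 difference of 3.17 against -0.06 for all genes. In CSF1R signalling, 20 of 26 were higher and 2, the Src family kinase genes Fyn and Src, lower. Tyrobp, the gene of the adaptor DAP12, averaged 1257 ± 147 CPM in GFP microglia and 0.147 ± 0.208 CPM in GFP non-microglia. The kinase gene Lyn was at 712.3 ± 54.0 CPM in GFP microglia and 14.2 ± 2.40 CPM in GFP non-microglia, and the phosphatase gene Ptpn6 at 797.2 ± 42.0 CPM in GFP microglia and 0.505 ± 0.714 CPM in GFP non-microglia (SD, n = 7 and n = 2). Among transcription factors known to act on the Csf1r locus, 7 of 9 were higher, Runx1 (log2 difference 5.90), Fli1 (5.90) and Cebpa (4.02) with the smallest p, and Ets2 was lower (log2 difference -1.54, edgeR adjusted p = 2.21e-08). Beta chain signalling was split, with Socs3 (3.43) and Stat5a (1.004) higher and Cish (-3.60) and Socs2 (-2.31), feedback inhibitors of STAT5 signalling, lower in microglia.

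The other proteins known to bind IL-34 were found on opposite sides. Ptprz1, a receptor phosphatase gene of glia, averaged 5.43 ± 4.33 CPM in TGFB1 microglia and 6.82 ± 7.91 CPM in GFP microglia (SD, n = 7 each), against 36.7 and 46.0 CPM in the TGFB1 and 41.4 and 60.8 CPM in the GFP non-microglia libraries. It was lower in microglia of GFP retinas by a log2 difference of -2.98 (SE 0.77, edgeR adjusted p = 0.0032). Trem2, a myeloid receptor gene, averaged 1001 ± 115 CPM in TGFB1 microglia and 1065 ± 117 CPM in GFP microglia (SD, n = 7 each) and had 0 counts in all 4 non-microglia libraries. Sdc1, the syndecan-1 gene, had 0 to 3 counts in every library and could not be compared.

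Likeness of profiles was measured as the root mean square difference of centred log2 CPM over the 18 libraries, among 12993 genes, and is a description without a test. The 3 genes most like Csf1r were Fgd2 (0.14), Il10ra (0.15) and Fcgr3 (0.15), with group means of 581.9 to 641.4 CPM in microglia and 0 CPM in non-microglia. Their log2 level in non-microglia was thus set by the prior count of 1 added before the logarithm, and their likeness depends on it. Csf1r itself had 23 to 31 counts in each non-microglia library. The 3 nearest Il34 were Enpp5 (0.50), Igfbp2 (0.54) and Vldlr (0.55), and all 3 averaged higher in both non-microglia groups than in either microglia group. The 3 nearest Csf1 were Anxa2 (0.40), Alpk1 (0.40) and CT030661.1 (0.41). The profiles share library depth and the sort into fractions, and those of Il34 rest on few counts in microglia. Within the 14 microglia libraries, centred on the treatment means, Zdhhc12 (0.17), CT030661.1 (0.20) and Stk3 (0.21) lay nearest to Csf1 among 9899 genes.

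**Figure D4:**
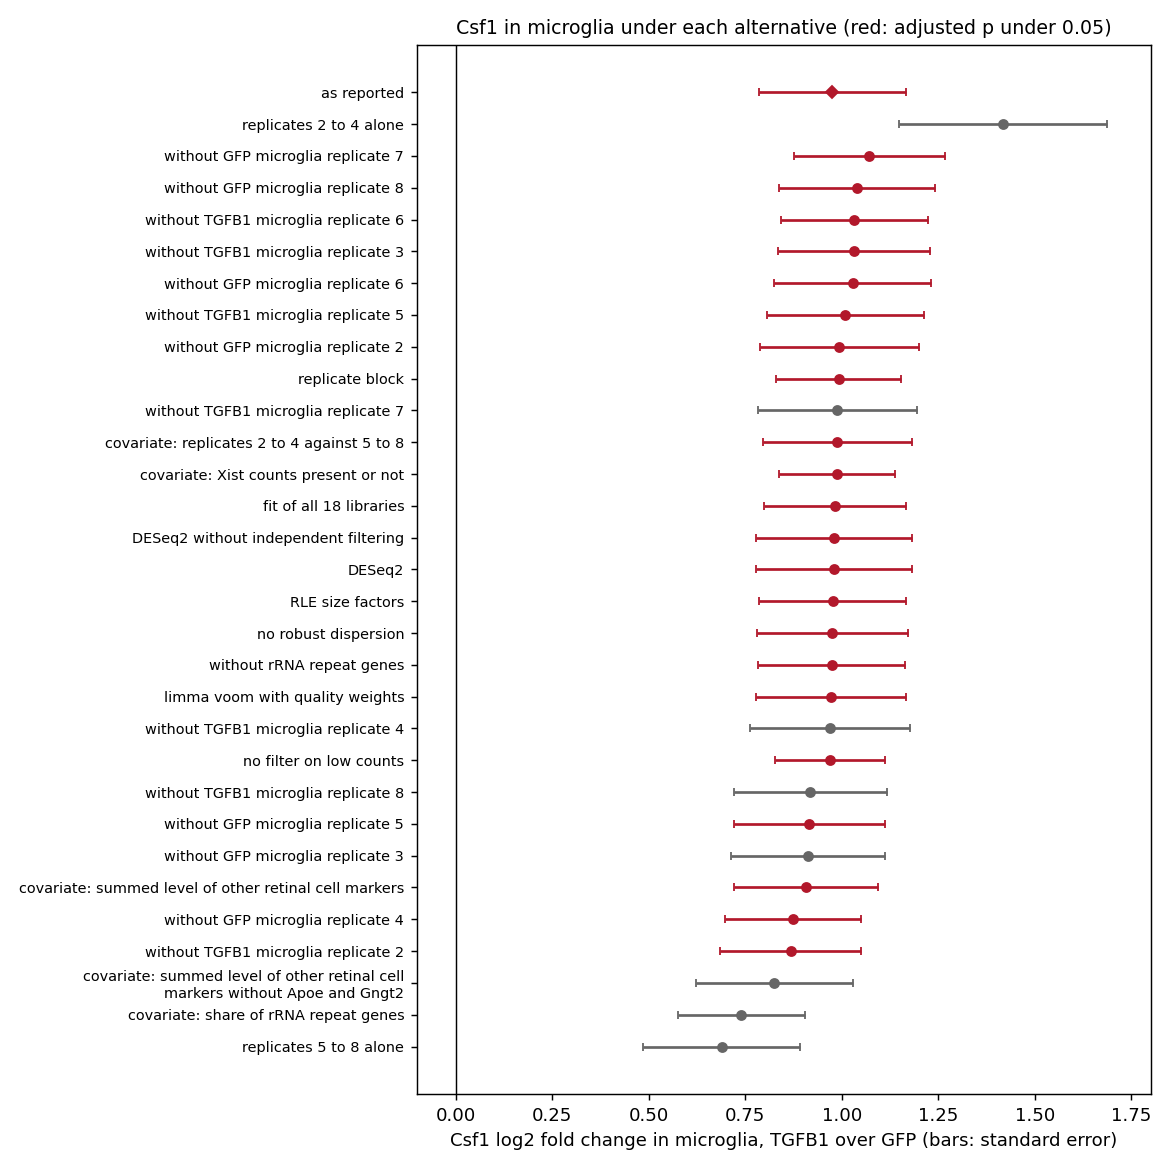
Log2 fold change of Csf1 in microglia, TGFB1 over GFP, with its standard error, as reported (diamond, top) and under each of 30 alternatives (circles), in red where the adjusted p is under 0.05. All values lie above 0, between 0.69 and 1.42, and 22 of the 30 alternatives are red. The alternatives share libraries and are not independent tests.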

How the data were processed

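RNA was measured in 18 libraries, and the deposited file is a single table of raw, unnormalized counts, with a row for each Ensembl gene and 18 columns. All columns were used. Per the submitters' processing notes, STAR, featureCounts and DESeq2 were used with GRCm38.p6; versions, annotation and strand setting are not given there or in the labels. Of 54532 identifiers, 54495 matched GENCODE M21, which gave symbols, positions and exon lengths. Promoter stretches came from RefSeq tables of the same build, matched by symbol and shown for 4 of the 7 genes.

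Groups follow the sample titles. Treatments were compared with edgeR 4.0.16 (R 4.3.3; TMM, filterByExpr, robust quasi-likelihood) within each fraction, and fractions and the difference of effects in a fit of all 18 libraries. A gene counted as called where its Benjamini-Hochberg adjusted p, over all genes tested, was under 0.05. Standard errors are the log2 fold change over the square root of F, and are not given where a Poisson bound set the p. CPM use TMM-scaled library sizes from all 18 libraries and are means ± SD. Permutation tests used log2(CPM + 1). Totals of 1582451 to 3064027 counts limit precision. Poisson intervals (95%) of ratios pool the counts of a group, the floor of a gene at 0 is 3 counts per library, and both cover counting error only, since Smart-Seq2 reads carry no molecular identifiers. The models were tested on simulated counts. Of genes given a 2-fold change, 87.4% were called in microglia, 54.6% in non-microglia and 47.8% between fractions of GFP retinas. A missing call in non-microglia thus leaves changes of that size possible. False calls made up 3.76%, 4.14% and 3.51% of the calls in these comparisons.

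The 7 genes, the pathway and marker lists and the tests were chosen with earlier results of these data known. Named pathway genes are up to 3 per list by smallest p in microglia and between fractions, with Fyn, Src, Stat5a and Ets2 named beyond this rule, for their direction, with values in view. One gene of the pathway lists is included in the counts and its own result is not reported here. Other settings tried were DESeq2 1.42.0, limma 3.58.1 voom, RLE factors, no filter, no robust dispersion, a replicate block, covariates, left-out genes or libraries and, added after the data were seen, microglia replicates 2 to 4 and 5 to 8 alone, a marker covariate without Apoe and Gngt2 and DESeq2 without independent filtering.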

Additional observations from a re-analysis of the deposited data

Results flagged for a closer look

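The Csf1 difference between TGFB1 and GFP had opposite signs in the sorted fractions, and neither its value in non-microglia nor the difference of the effects passed the adjusted test. Every TGFB1 microglia library lay above every GFP one, and both TGFB1 non-microglia libraries lay below both GFP ones. With so few non-microglia libraries such a separation says little, and its share over all genes was not counted. The difference of the effects was 1.475 on the log2 scale (SE 0.39, unadjusted p = 0.000861, edgeR adjusted p = 0.669).

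Single libraries stood apart from the rest of their group by Dixon's criterion in 2 of 14 checks of a gene in a microglia group, a criterion that flags about 1 in 20 groups by chance. For Il34, TGFB1 microglia replicate 6 had 1.412 CPM, from 2 counts, with the other libraries at 0 to 0.435 CPM. For Csf1r, GFP microglia replicate 2 was lowest, at 10078.1 CPM, with the other libraries at 10840 to 11397 CPM. The same library had the highest summed markers of other retinal cells without Apoe and Gngt2, 1731.1 CPM, whose part in this was not tested.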

How the results depend on the processing

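Of the counts of called genes per comparison, 110 alternatives gave a count within 1.5 times the reported one and 9 did not. In microglia the reported count of 1, Csf1, became 0 with the rRNA repeat share as a covariate, with the markers of other retinal cells without Apoe and Gngt2 as a covariate, chosen after seeing the data (Csf1 0.83, SE 0.20, adjusted p = 0.146), and in replicates 2 to 4 or 5 to 8 alone, and ran from 0 to 1 over left-out libraries, where the Csf1 log2 fold change ran from 0.87 to 1.07. For the difference of effects, 0 became 1 without the filter on low counts (Csf1, 1.47, SE 0.31, adjusted p = 0.0276). Of the values of single genes, 736 kept direction and call, 8 lost the call (all Csf1 in microglia), 1 gained it and 15 changed sign, all of them uncalled. The cause was not tested. The planned marker covariate, with Apoe, kept the Csf1 call (0.91, SE 0.19, adjusted p = 0.0269), but Apoe made up 69.9% to 90.6% of it. The sign changes were Csf1r in microglia in the fit of 18 libraries (0.001254), with the planned marker covariate (0.002794) and in replicates 5 to 8 (0.001656), where Csf2ra (-0.02973) and Csf2rb (-0.0007134) also turned, as did Csf2ra without Apoe and Gngt2 in the covariate (-0.04691). Csf1r ran from -0.01924 to 0.007256 over left-out libraries. Il34 in non-microglia was 0.05718 with voom and ran from -0.57 to 0.80 over left-out libraries, and the Csf2rb2 difference of effects ran from -2.12 to 3.19.

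Whether replicate numbers pair the libraries is not stated in the labels, and the data are mixed. Deviations of same-numbered microglia libraries correlated at -0.124 to 0.216, over 0.1 in 5 of 7 numbers, and 2 of 7 were closest to their own number, while Xist RNA was present in both or absent from both treatments in 7 of 7. The block raised the calls over all genes to 60, against 34 without it, in microglia and to 109, against 53, in non-microglia. With the replicate block Csf1 in microglia was 0.99 (SE 0.16, adjusted p = 0.00211) and Il34 in non-microglia 0.02443, and the block changed no call among the 7 genes. DESeq2 gave no adjusted p in non-microglia for the 4 tested genes. RLE factors moved the median of all genes between fractions to -0.169 in TGFB1 retinas, against -0.044 as reported, and to -0.175 in GFP retinas, against -0.059. Depth limits Il34 in microglia and the beta chains and Csf3r in non-microglia, at 0 to 5 counts a library.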
